A study of Bos taurus with 2 samples.

Results

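Olfactory receptors are the largest family of G protein-coupled receptors in mammals. In the nose each sensory neuron uses a receptor of this family to detect odorants, and the signal passes through the G protein subunit Golf (GNAL) and adenylate cyclase 3 (ADCY3) to a cyclic nucleotide-gated channel. Transcripts of some members are also known from testis and sperm, where a few receptors have been studied for a part in sperm movement.

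The olfactory receptors described here were the probes of a bovine 60-base oligonucleotide array that name an olfactory receptor in their description and that were well above background at every spot on both arrays. An olfactory receptor was named by 1006 probes with 943 gene names, out of 51279 probes with a value. Of these, 113 probes with 111 gene names were detected on both arrays. These 113 probes were chosen by the scanner's detection flags on both arrays, so their being detected is not a result. A further 50 probes carry an olfactory receptor symbol without the phrase in their description, and 5 of them were detected on both arrays, with differences from -0.28 (OR1N1) to 1.18 (OR4D6).

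Testis RNA of bulls was compared between crossbred cattle (Holstein Friesian crossbreds with 50 to 75% exotic inheritance) and Zebu cattle (Tharparkar breed). The bulls were 24 months old, were labelled adult males, and gave the right testis by unilateral castration. RNA of 3 bulls was pooled for each group and each pool was hybridised to 1 array with a single dye, so the animals' spread cannot be measured, and no test between the groups was possible. All differences below are crossbred minus Zebu on the log2 scale and describe these arrays. The bulk tissue holds many cell types, so fewer cells of a type and less RNA per cell cannot be told apart.

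Levels are log2 signals relative to the 75th percentile of the same array, which lay at a signal of 1176 for the crossbred pool and 1233 for the Zebu pool. The spots of 1 probe differed in their crossbred minus Zebu value with an SD of 0.33 over 5960 detected probes with repeated spots, which covers spotting and scanning error only. Testis markers were present, with protamine 1 (PRM1), which packs sperm DNA, at 7.43 in the crossbred and 7.07 in the Zebu pool. Of 12 markers of olfactory sensory neurons, 8 were detected on both arrays, beside 71.1% of all probes. CNGA4, ANO2 and STOML3 were detected on neither and OMP on the Zebu array alone.

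The 60-base sequences that carry the clearest differences are shown first, since a difference measured by a probe belongs to the transcripts that its bases can bind. Capitals mark the bases that the members of a pair share in 1 run, and sequences with no capitals were not paired. The pair of OR8G5 probes overlapped on chromosome 29 of the array's build, Btau_3.1, at chr29:28204392-28204451 and chr29:28204436-28204495, and 14 of the 16 overlapping bases were equal.
OR8G5, first probe: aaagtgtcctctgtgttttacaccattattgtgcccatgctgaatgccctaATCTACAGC
OR8G5, second probe: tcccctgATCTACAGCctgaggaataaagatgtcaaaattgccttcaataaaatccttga
OR8G5, other locus: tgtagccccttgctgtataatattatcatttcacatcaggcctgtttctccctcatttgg
OR5M9: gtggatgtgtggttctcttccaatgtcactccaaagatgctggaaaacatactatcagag
LOC539468: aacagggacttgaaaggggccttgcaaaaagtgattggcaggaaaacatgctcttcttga

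The LOC510902 probe at chr15:78415104-78415163 and the LOC532501 probe at chr15:78322202-78322261 shared 27 bases in 1 run. Most of the bases after that run were also equal, so these probes may not separate the transcripts of these names. They are shown because both read higher on the crossbred array.
LOC510902: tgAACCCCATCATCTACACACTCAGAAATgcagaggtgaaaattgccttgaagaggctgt
LOC532501: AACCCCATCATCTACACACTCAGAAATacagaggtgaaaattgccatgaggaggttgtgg

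The OR1D2-like probe (LOC540255) and the OR1D5 probe at chr19:23973997-23974056 shared 56 bases and were linked by accession or LOC number. They may stand for the same gene, and cannot separate transcripts of these names.
LOC540255: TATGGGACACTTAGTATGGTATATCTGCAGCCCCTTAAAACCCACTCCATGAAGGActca
OR1D5: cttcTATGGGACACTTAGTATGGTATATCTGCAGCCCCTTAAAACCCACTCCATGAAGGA

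Of the 113 probes, 87 differed by less than 0.5, beside 53.4% of all detected probes, and the differences ran from -0.66 to 2.58 with a median of 0.18. At mean levels below -3, 77 of 100 differed by less than 0.5, beside 56.4% of all detected probes there. The median over all 36443 probes detected on both arrays was -0.06. Above 0 lay 79 of the 113, against 46.5% of all detected probes. Probes named by a RefSeq transcript made up 60 of the 113, but 3853 of all 36443. Among these, 68.3% of the receptors lay above 0, against 57.9% of all detected ones, with medians of 0.21 and 0.11. Among the maker's catalogue probes the shares were 71.7% and 45.2%, with medians of 0.13 and -0.08.

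By the size of 1.5, 6 olfactory receptor probes were higher in the crossbred pool, against 5.4% of all detected probes, and their own share was 5.31%. At mean levels below -3 it was 4 of 100, against 3.78% of all detected probes there. At -3 or above it was 2 of 13, against 6.09%. None of the 113 was lower by 1.5, against 1.56% of all detected probes and 1.94% of those with a mean level below -3. With signals corrected by normexp with an offset of 50, 2 of the probes remained past 1.5, both of them OR8G5. The share of all probes past 1.5 under normexp was not counted, so this fall is not shown to be particular to the receptors. At a size of 1, 9 probes were higher, against 10.7%, and 0 lower, against 6.89%.

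Levels were low. The median level of the 113 probes was -4.47 for the crossbred and -4.67 for the Zebu pool, and the lowest level flagged well above background was -5.78 and -5.94. On at least 1 array, 50 probes lay less than 1 above that lowest level. The first OR8G5 probe on the crossbred array was the single value at or above the 75th percentile of its array.

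**Figure D1:**
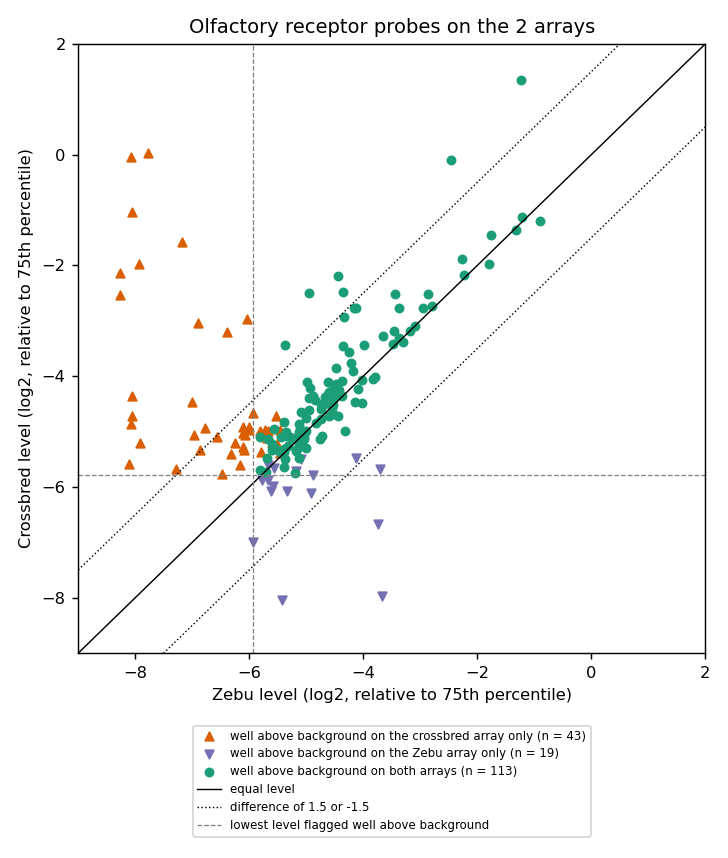
Each point is an olfactory receptor probe, with its level on the Zebu array (x axis) and on the crossbred array (y axis), both log2 relative to the 75th percentile of the array. The 113 probes detected in both pools lie mostly along the line of equal level, the 43 detected in the crossbred pool alone lie above it or near it, and dashed lines mark the lowest level flagged well above background.

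OR8G5, an odorant receptor of family 8, held the largest difference. Its first probe read 1.34 in the crossbred and -1.24 in the Zebu pool, a difference of 2.58 or 5.99-fold. The second probe, which overlaps it, read -0.09 and -2.46, a difference of 2.37. Another OR8G5 probe, at chr29:28955351-28955410, read -2.76 and -4.12, a difference of 1.36. All 3 were higher in the crossbred pool, each from 1 spot with none of its 6 adjacent spots higher by 1.5.

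Other olfactory receptor probes of chromosome 29 were read on the crossbred array only. LOC781828, 40563 bases from the start of the first OR8G5 probe, read -5.59 and -8.11, at least 1.28-fold higher. LOC616755, which the gene table of assembly ARS-UCD2.0 also names OR8G5, read -4.71 and -8.05, at least 2.34-fold higher. The 43 olfactory receptor probes placed on this chromosome comprised 3 that both pools showed, 3 that only the crossbred pool showed and 0 that only the Zebu pool showed, the rest being dim in both. Over all probes, 2.12% were shown by the crossbred pool alone and 4.43% by the Zebu pool alone. Of all 1006 olfactory receptor probes, 43 were shown by the crossbred pool alone and 19 by the Zebu pool alone. OR8G2, another member of the subfamily, placed between the first probe and LOC781828, was not well above background on either array.

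LOC539468, described as an OR1F1-like receptor, was measured by 2 spots far apart on the array. One spot gave 2.64 and the other 2.29, with means of -2.49 on the crossbred and -4.96 on the Zebu array. The difference of 2.47 was thus present in both spots. Under normexp it was 1.37.

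OR5M9, a receptor of family 5, also had 2 spots, which gave 2.55 and 1.97. Its levels were -2.19 and -4.45, a difference of 2.26. Another OR5M9 probe lies 639 bases away on the same unplaced contig and read -5.02 and -6.10, on the crossbred array only, at least 1.89-fold higher. A further one, 539 bases away, and a transcript probe under LOC509895 were not well above background on either array, so the probes of OR5M9 gave unlike readings.

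LOC510902, an olfactory receptor of chromosome 15, read -2.48 and -4.36, a difference of 1.87 from 1 spot. Within 120000 bases on the array's build, probes of 3 other genes also read higher. LOC532501, whose description does not name an olfactory receptor, read -3.36 and -5.41, a difference of 2.05. Its probe has most bases in common with the LOC510902 probe, so these readings may not be separate. NP9568451, described as a receptor of the transmembrane helix kind, read -1.68 and -4.18, a difference of 2.50. The latter lists the same transcript as LOC510451, an olfactory receptor probe read on the crossbred array only at -2.97 and -6.05, at least 7.84-fold higher. ENSBTAT00000043923, described as uncharacterised, read -5.52 and -7.56 with 1 probe, at least 1.34-fold higher, and its other probe was dim on both arrays. OR4X1, OR4C3 and OR4C46, neighbours in the same stretch, were not well above background on either array.

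LOC526667, an Olfr736-like gene of chromosome 10, read -2.94 and -4.34, a difference of 1.40. A separate probe of the same transcript, described without the words of the rule, gave -2.40 and -3.95, a difference of 1.55. The 2 readings differed by less than the spread between spots.

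LOC100297422, an Olfr1174-like gene, averaged -3.45 and -5.38, a difference of 1.93, but its spots did not agree. One spot gave 3.86 and the other 0.00. On the first, 2 of the 6 adjacent spots were also higher by 1.5.

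The same was seen for the transcript of OR6Y1, a receptor of family 6. Its LOC520257 probe gave 2.98 at a spot with 3 of 6 adjacent spots higher and -0.19 at the other, for a mean of 1.40. A separate OR6Y1 probe read -5.21 and -5.09, a difference of -0.12. Without the probes of LOC100297422 and LOC520257, 5 probes were higher by 1.5 and the spot SD of the olfactory receptors fell from 0.52 to 0.27.

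**Figure D2:**
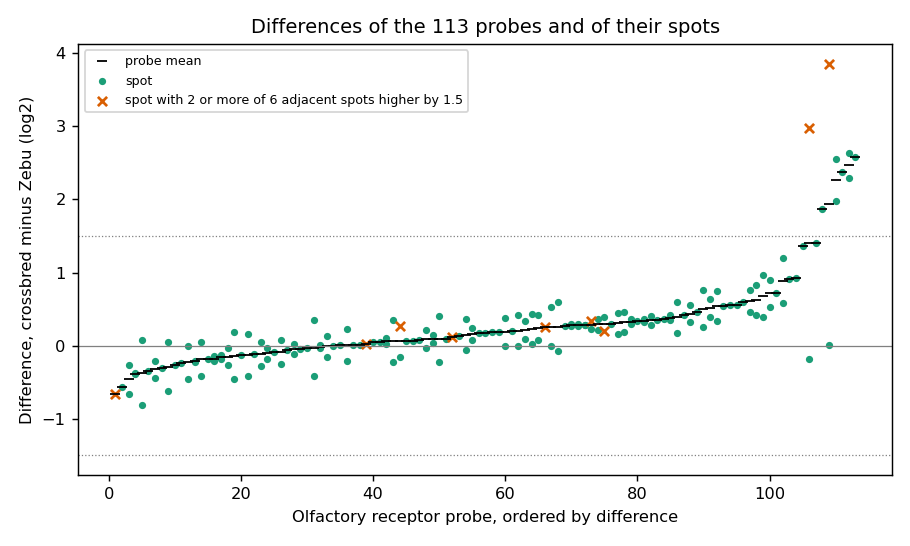
Crossbred minus Zebu difference (y axis, log2) of the 113 olfactory receptor probes in order of size (x axis), with dashes for the probe mean and points for single spots. Crosses mark spots with 2 or more of 6 adjacent spots higher by 1.5, and the spots at 3.86 and 2.98 are among them while their partner spots lie at 0.00 and -0.19.

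Places on the glass were checked for every olfactory receptor. The crossbred array has a dark patch, where 544 spots had a median difference of -1.01, and a bright patch, where the median of 105 spots was higher on the crossbred array. No spot of the 113 probes lay in either patch. The rule needed detection on the crossbred array, so receptors dimmed by the dark patch would tend to leave the 113. Their absence there is therefore partly set by the rule. Of their 175 spots, 9 had 2 or more adjacent spots higher by 1.5, a share of 5.14% against 4.16% of all spots, and 7 of these 9 differed by less than 0.7 in size.

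Olfactory receptors outside the 113 did lie in the patches, 11 spots in the dark one and 3 in the bright one. NP13356489 in the bright patch read -2.15 and -8.27, with 3 of 6 adjacent spots higher. LOC524658 in the dark patch read -7.97 and -3.67 and was flagged on the Zebu array only. The part of the patches in these readings was not tested.

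On a single array 62 olfactory receptor probes were well above background, 43 on the crossbred and 19 on the Zebu array. Over all probes the balance was the other way, with 2.12% on the crossbred array alone and 4.43% on the Zebu array alone. The level on the dim array is then only a bound. OR52K1, a class I receptor of chromosome 15 at chr15:49972760-49972819, read -0.05 on the crossbred and -8.07 on the Zebu array, at least 59.4-fold higher, with 1 of 6 adjacent spots higher. OR12D2, at chr23:29260388-29260447, read 0.04 and -7.78, at least 62.9-fold higher, but 3 of its 6 adjacent spots were higher too. Each rests on 1 spot, and the part of the surroundings was not tested.

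OR10R2 read -1.04 and -8.06, at least 29.8-fold higher, with 2 of 6 adjacent spots higher. A separate transcript probe of OR10R2, under LOC781998, read -4.99 and -5.81, at least 1.76-fold higher. OR6K2 read -1.58 and -7.18, at least 20.5-fold higher, with 1 adjacent spot higher. On the Zebu array only, LOC524282 (OR5W1 in the gene table) outside the patches read -6.68 on the crossbred and -3.75 on the Zebu array, at least 4.09-fold lower in the crossbred pool.

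Smaller positive differences followed among the 113, none of them past 1.5. NP9556472 read -2.52 and -3.45, a difference of 0.93, and LOC788476 read -3.45 and -4.36, a difference of 0.91. LOC510087, a family 10 receptor, gave 0.58 and 1.19 at its 2 spots, a mean of 0.89.

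Of the 113 probes, 13 with 12 gene names had a mean level of -3 or above, and 10 of them differed by less than 0.5, beside 52.1% of all probes at that level. NP13364071, a family 4 receptor, read -1.20 and -0.89, a difference of -0.30. LOC520181 read -1.12 and -1.21, a difference of 0.09, and LOC514532 read -1.37 and -1.32, a difference of -0.05. LOC512266 read -1.46 and -1.76, a difference of 0.31.

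The lowest differences were small. NP13355787, similar to rat Olr804, read -4.98 and -4.33, a difference of -0.66, while a separate probe of its transcript gave 0.06. LOC523753 read -5.75 and -5.19, a difference of -0.56, while its transcript probe gave 0.67. Neither gene was lower with both of its probes. LOC615808, family 5 in its description and OR9I2 in the gene table, was lower with both, at -0.38 from a pair of spots that gave equal values, and at -0.73 from a probe outside the rule's words. LOC786864 read -4.49 and -4.03, a difference of -0.46.

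Separate probes of 1 gene agreed in some cases and not in others. Among 14 pairs of the 113 probes that share a gene name, LOC number or transcript, the readings lay apart by a median of 0.41 and by at most 1.52, and 7 pairs lay within 0.5. In 7 of the 14 pairs both differences had the same sign. Of 79 members with another probe of the gene on the array, 46 had all of these other probes dim on both arrays. LOC615363, a pair, gave 0.36 and 0.30. LOC785069 is on the array with the same 60 bases under both kinds of name, and these gave 0.01 and -0.11.

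Receptors studied outside the nose were mostly dim. OR1D2, studied in human sperm chemotaxis, has an OR1D2-like probe, which read -4.21 in the crossbred and -4.93 in the Zebu pool, a difference of 0.72. The probe linked to it by accession or LOC number, named OR1D5 on the array, read -4.14 and -5.02, a difference of 0.88. A putative 10J1-like probe (LOC522554) read -4.36 and -4.88, a difference of 0.52. OR7A5, OR51E1, OR51E2 and OR2AT4 were not well above background on either array with their brightest probe.

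As a description of the rule, 11.2% of olfactory receptor probes were detected on both arrays, against 71.1% of all probes. Vomeronasal receptors, the pheromone receptors, were detected with 3 of 24 probes and taste receptors with 27 of 66. Other G protein-coupled receptors were detected with 129 of 205. These families were not tested against each other, and their median differences were -0.01, -0.18 and 0.09.

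The share of olfactory receptor probes detected differed with base composition, which the rule did not use. The 113 probes themselves lay in every range, with a median of 45% GC, above the 41.7% of all 1006 olfactory receptor probes. It was equal to that of all probes on the array. Of the olfactory receptor probes with 40% GC or less 11 of 425 were detected, and of those over 40 to 45% 53 of 469. Over 45 to 55% it was 40 of 101, and over 55% 9 of 11. All other probes stayed between 69.6 and 75% over the same 4 ranges. From the lowest range to the highest, median differences of detected receptor probes were 0.26, 0.20, 0.17 and 0.06. Those of all other detected probes were -0.20, -0.04, 0.05 and 0.16. Probes are of the maker's catalogue or named by a RefSeq transcript, and the order of the receptor shares held within both kinds, although the top range held 2 and 9 olfactory receptor probes. Among transcript probes the other genes also had their highest share there, at 47.3, 44.4, 51.3 and 69.9% from the lowest range to the highest, so the flat comparison is that of the catalogue probes, at 72.5 to 79%.

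**Figure D3:**
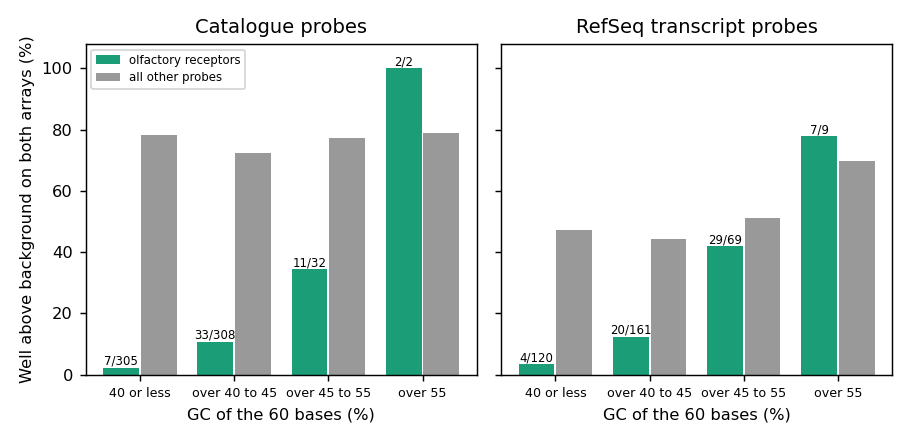
Percentage of probes well above background on both arrays (y axis) by GC content of the 60 bases (x axis), for catalogue probes and RefSeq transcript probes, with olfactory receptors in green and all other probes in grey. Labels give detected over total olfactory receptor probes, from 7 of 305 and 4 of 120 in the lowest range.

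By receptor class, 5 of 78 class I probes (families 51 to 56, the fish-like receptors) and 39 of 370 class II probes were detected on both arrays. Their median differences were 0.06 and 0.20. The other 69 of the 113 gave no family in name or description. Chromosome 15, which carries the largest set of the placed probes, held 12 detected of 179 probes, and chromosome 19 held 5 of 15.

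The signalling genes of the nose were measured beside the receptors. Of 35 genes of the odorant signalling list, 26 were detected on both arrays with their brightest probe, beside 71.1% of all probes, with a median difference of 0.06. By 1.5 or more, 4 were higher and 1 was lower, beside 5.4% and 1.56% of all detected probes. GNAL, the olfactory G protein alpha subunit, read -0.91 and -0.76, a difference of -0.14, and its other probe read -3.20 and -2.27, a difference of -0.93.

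GNG13, a G protein gamma subunit, read -2.05 and -4.11, a difference of 2.06. ADCY3, the olfactory cyclase, read -2.97 and -4.82, a difference of 1.84, but its other probe gave 0.13. CNGB1, a subunit of the cyclic nucleotide-gated channel, read 0.52 and -1.77, a difference of 2.29, but 2 further probes detected on both arrays gave -0.28 and 0.29. Another CNGB1 probe was detected on the crossbred array alone, at least 1.85-fold higher, and the last on neither. The channel's CNGA2 subunit read -5.16 and -4.82, a difference of -0.34, and CNGA4 was dim on both arrays.

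Among other parts of the cascade, the brightest probe of GNAS, a stimulatory G protein subunit, read 4.13 and 4.66, a difference of -0.52. Its 6 other probes lay between -1.91 and -0.68, so all GNAS probes were lower in the crossbred pool. PDE4A, a phosphodiesterase, read 2.20 and 1.60, a difference of 0.60, with other probes at 1.19 and 1.85. RGS2, a regulator of G protein signalling, read 0.74 and 1.75, a difference of -1.01, with its other probes between -1.19 and -1.01. PDE1C, a phosphodiesterase that clears cyclic AMP, read -2.69 and -3.58, a difference of 0.89. The kinase genes ADRBK2 and PRKACA each gave 0.06.

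UGT2A1, an enzyme that clears odorants, read -4.00 and -5.17, a difference of 1.17. EBF1, a transcription factor of olfactory neurons, read 0.86 and 0.02, a difference of 0.84, with other probes from -1.62 to 1.20. LHX2 read -0.58 and -1.39, a difference of 0.81, and LDB1, its partner, gave 0.05. ANO2, CAMK2A, RTP3, STOML3 and EBF2 were dim in both pools.

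Proteins that carry receptors to the membrane differed in direction. REEP6 read 2.84 and 1.03, a difference of 1.81, and its other probe gave 1.66. RTP4 read 0.26 and 2.37, a difference of -2.11, with 4 of 6 adjacent spots lower by 1.5. Its other probe, with none of its adjacent spots lower, was detected on the Zebu array alone at -6.78 and -4.47, at least 2.47-fold lower in the crossbred pool. RTP1 read -1.52 and -1.45, a difference of -0.07, and RTP2 gave 0.30. The probes of REEP1 disagreed, at -0.06 for the brightest, with 2 of 6 adjacent spots higher, and 2.02 for the other.

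**Figure D4:**
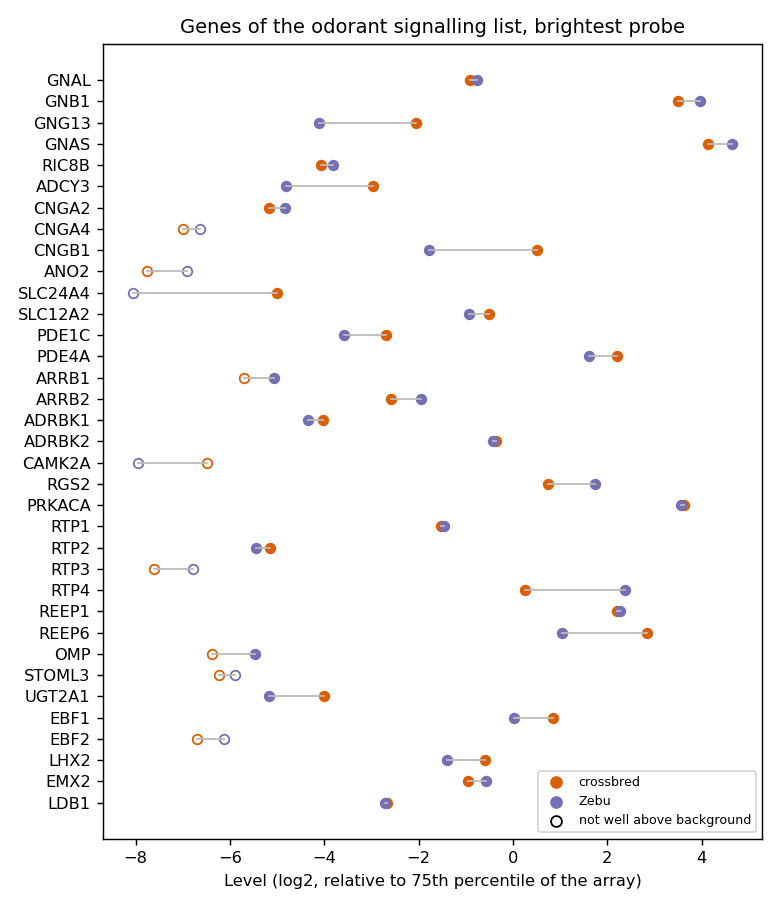
Level (x axis, log2 relative to the 75th percentile of the array) of the brightest probe of each of the 35 odorant signalling genes on the crossbred and Zebu arrays. Open circles were not well above background, and the widest gaps among genes detected on both arrays are those of CNGB1, RTP4, GNG13, ADCY3 and REEP6.

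Markers of some other cells differed between the pools. Of 12 olfactory sensory neuron markers, 8 were detected on both arrays, beside 71.1% of all probes. By 1.5, 3 were higher, beside 5.4% of all detected probes, and 1 of these was ADCY3, whose other probe gave 0.13. The summed level of the 12 markers was 3.45 on the crossbred and 1.84 on the Zebu array, in units of the 75th percentile. Without CNGB1, whose probes disagreed, the sums were 2.01 and 1.55. OMP, the marker of mature olfactory neurons, was detected on the Zebu array only, at -5.47, and CNGA4, ANO2 and STOML3 on neither. Spermatid markers were higher by 1.5 in 5 of 8, beside 5.4% of all detected probes, with a median of 1.73 and sums of 555 and 287. Sertoli cell markers had a median of -0.90 over 5 genes, with sums of 129 and 203. Leydig cell markers had a median of -0.79 over 6 genes, with sums of 87.8 and 133. Of these, 2 were lower by 1.5, CYP17A1 at -1.68 and HSD3B1 at -1.77, beside 1.56% of all detected probes. Spermatocyte markers had a median of 0.20 over 3 genes and spermatogonium markers -0.62 over 5, with 0 past 1.5 in either list. Macrophage markers had a median of 0.20 over 3 genes, with 1 of them, AIF1, higher by 1.5. The part of these differences in the receptor differences was not tested.

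At the edge of detection, margins were thin. The lowest signal of LOC513474, just inside, was 1.01 times the lowest one flagged well above background, with levels of -5.31 and -5.54. That of LOC782152, just outside, was 0.986 times, with levels of -4.98 and -5.67.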

How the data were processed

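The deposited scanner files (Agilent Feature Extraction 11.5.1.1, array build HGSC Btau_3.1) held signal intensity for each spot, background-subtracted by the authors' scanner software. The authors also deposited log2 values, which served as an alternative. Here log2 processed signals were averaged over the spots of a probe, leaving out 13 outlier spots of 61657, and each array was shifted by its 75th percentile over 51279 probes. Detection was the scanner's well-above-background flag at every spot. Where 1 array was not above background, the fold is a bound, taken against the higher of its own level and the lowest detected level. The size named as higher or lower was 1.5 on the log2 scale. Only 1 array per group exists, which limits the precision, so no test was run. Named probes were the largest and smallest differences, those with several probes or spots, and the listed genes. The receptors, lists and rules were chosen with earlier results of these data known. Probe names were matched to the RefSeq gene table of ARS-UCD2.0 for 71 of the 113 probes. A gene of the odorant signalling list is not reported here. The calculation was tested on simulated data. Python 3.11.15 and limma 3.58.1 were used.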

Additional observations from a re-analysis of the deposited data

How the results depend on the processing

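No paired analysis was possible because each group had 1 array, and for the same reason no array could be left out. The median difference of the 113 probes stayed between 0.09 and 0.19 under the alternatives that kept these probes. Where the set of probes changed, the median was at most 0.26, with 175 probes detected on at least 1 array. The count of probes higher by 1.5 was 6, and was 2 with normexp background correction, an offset of 50 included. The cause was not tested. Detection changed the counts most. The weaker flag for a signal above background gave 370 probes, 21 higher and 2 lower. Requiring detection on at least 1 array gave 175 probes, 17 higher and 3 lower, with bounds in place of dim values. The shares of all probes past 1.5 under normexp and under these detection rules were not counted. These counts therefore do not set the receptors apart from the rest of the array. Names in the gene table left 71 probes. By kind of probe, chosen after seeing the data, 60 transcript probes held 2 higher, or 3.33%, beside 7.19% of all detected transcript probes. The 53 catalogue probes held 4, or 7.55%, beside 5.19% of all detected catalogue probes. Leaving out the 2 probes whose spots lay more than 1 apart, also chosen after seeing the data, left 5 higher. Among the values of 30 named probes under alternatives, 147 moved by less than the spot SD of 0.52 and 6 moved further. Without the 2 probes with uneven spots that SD is 0.27, and 19 values moved further, 17 of them under normexp. The sign changed in 3 values of 2 probes, whose main differences were at most 0.04 in size.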
